A study of Mus musculus with 54 samples.

Results

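The troponin genes are the 8 mouse genes Tnnt1, Tnnt2, Tnnt3, Tnni1, Tnni2, Tnni3, Tnnc1 and Tnnc2, which were taken by the symbol of their Ensembl gene identifier from the 54232 genes listed in every count file. They were chosen by the level of Tnnt1 in treated against untreated aged hearts, which was already in view, so the heart values of all 8 genes are given as a description, without a test. Tissue RNA was sequenced from male BL6 mice that received daily intraperitoneal injections for 14 days of either Cmpd60, a selective inhibitor of the histone deacetylases HDAC1 and HDAC2, at 22.5 mg/kg or of the solvent alone (vehicle). Naturally aged mice of about 20 months gave 11 heart libraries (5 Cmpd60, 6 vehicle), 11 kidney libraries (6 Cmpd60, 5 vehicle) and 12 brain libraries (6 and 6), and no young mice were in these comparisons. Kidney groups follow sample titles and source names, because the treatment field states the reverse for these 11 libraries. Brain of 6-7-month-old mice gave 20 further libraries, from tg/wt APPSWE-1349 mice, which carry a transgene for human amyloid precursor protein with the Swedish mutation (4 Cmpd60, 6 vehicle), and from their littermates (5 and 5). Libraries held 23584609-57430113 reads counted on genes. RNA came from tissue rather than from sorted cells, so for every difference below, fewer cells of a type and less RNA per cell cannot be told apart.

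Troponin is the calcium switch of striated muscle. Troponin C binds calcium, troponin I holds the thin filament in the off state at rest, and troponin T ties the complex to tropomyosin. Each subunit is encoded by separate genes with a muscle-type preference. Tnnt2, Tnni3 and Tnnc1 encode the set of the adult heart (Tnnc1 also serves slow skeletal fibres), Tnnt1 and Tnni1 encode the slow skeletal forms of T and I, and Tnnt3, Tnni2 and Tnnc2 encode the fast skeletal forms. Tnni1 is also the troponin I of the fetal heart, and it gives way to Tnni3 around birth.

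Tnnt1 and Tnni3 lie next to each other on chromosome 7, Tnni1 and Tnnt2 lie on the same chromosome with Lad1 between them, and Tnni2 and Tnnt3 are parted in the same way by Lsp1. RefSeq gives a start site window for 6 of the 8 genes in GRCm38.p6, from 250 bases before to 50 bases after the start. Tnni1 and Tnnt2 each have another window, which is not shown. The windows of Tnnt1, of its neighbour Tnni3 and of the main cardiac troponin T gene Tnnt2 are shown because the heart data set these 3 genes against each other. They are chr7:4515926-4516225 and chr7:4522479-4522778, both on the minus strand, and chr1:135836084-135836383 on the plus strand. Capitals mark matches on either strand to the motifs searched. The E-box was searched as CANNTG, the M-CAT element as CATTCC, the motif of GATA factors as these letters, the TATA box as TATAAA and the GC box as GGGCGG, beside the MEF2 core and the CArG box.
Tnnt1: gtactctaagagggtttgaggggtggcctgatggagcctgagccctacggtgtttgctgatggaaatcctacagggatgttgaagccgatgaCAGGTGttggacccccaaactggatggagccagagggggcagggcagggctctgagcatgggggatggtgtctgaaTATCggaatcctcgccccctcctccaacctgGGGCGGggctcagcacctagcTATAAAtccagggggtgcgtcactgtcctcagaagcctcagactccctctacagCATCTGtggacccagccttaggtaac
Tnni3: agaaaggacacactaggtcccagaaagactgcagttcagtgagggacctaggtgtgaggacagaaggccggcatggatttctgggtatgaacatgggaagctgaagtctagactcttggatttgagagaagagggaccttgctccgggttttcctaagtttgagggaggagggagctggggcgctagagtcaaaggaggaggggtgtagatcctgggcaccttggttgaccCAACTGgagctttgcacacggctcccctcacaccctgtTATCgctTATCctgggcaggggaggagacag
Tnnt2: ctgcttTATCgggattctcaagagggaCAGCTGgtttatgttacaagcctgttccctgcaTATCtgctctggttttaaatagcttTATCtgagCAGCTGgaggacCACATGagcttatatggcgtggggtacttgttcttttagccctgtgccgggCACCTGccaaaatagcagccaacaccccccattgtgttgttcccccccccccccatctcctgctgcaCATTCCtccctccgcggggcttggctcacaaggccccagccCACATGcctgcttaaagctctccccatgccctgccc
Positions are counted on the printed strand to the first base of a match, with 0 at the start site. The Tnnt1 window held the letters of a TATA box at -30 and of a GC box at -51, with 2 E-boxes and 1 GATA match. The Tnnt2 window shown held neither a TATA box nor a GC box, and it held an M-CAT element at -27, 5 E-boxes and 3 GATA matches. The other Tnnt2 window, from position 135836739, held no M-CAT element, 2 E-boxes and 1 GATA match. The Tnni3 window held 1 E-box at -19 and 2 GATA matches. No MEF2 core or CArG box was found in the 3 windows shown. Among 32851 windows of the same length, 13.6% held the TATA box, 35.7% the GC box, 14.7% the M-CAT element, 72.3% an E-box, 57.9% GATA, 3.69% the MEF2 core and 1.63% the CArG box. These matches describe letters and say nothing about which factors act there.

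In the vehicle-treated aged heart, the cardiac set dominated. Levels were compared between genes per transcript length, as reads per kilobase of transcript scaled to the library size (RPKM). Tnnt2 stood at 7792 ± 817 RPKM (SD, n = 6), Tnni3 at 3494 ± 307 RPKM and Tnnc1 at 2199 ± 165 RPKM, and the libraries of these 3 genes did not overlap. Tnnt1 came next at 10.4 ± 1.84 RPKM, 211-fold below Tnnc1. The fast forms followed with Tnni2 at 1.90 ± 0.519 RPKM and Tnnt3 at 1.06 ± 0.454 RPKM, then Tnni1 at 0.346 ± 0.0866 RPKM and Tnnc2 at 0.161 ± 0.155 RPKM. Every library had more Tnnt1 than Tnni2, whereas each neighbouring pair among Tnni2, Tnnt3, Tnni1 and Tnnc2 overlapped. All 8 genes together took 1.06% ± 0.124 of the gene reads in vehicle hearts and 1.11% ± 0.16 in Cmpd60 hearts (n = 5).

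Between treatments, Tnnt1 (ENSMUSG00000064179) was the only member whose heart groups did not overlap. Values of 1 gene are given in CPM, its counts relative to the library size, where TMM scaling corrects library sizes for composition. In Cmpd60 hearts 68 to 72, Tnnt1 stood at 34.8, 26.3, 22.7, 17.6 and 48.1 CPM. In vehicle hearts 62 to 67, it stood at 12.7, 8.65, 10.7, 9.32, 13.8 and 11.1 CPM. All 5 Cmpd60 hearts lay above all 6 vehicle hearts, and the Cmpd60 group was the more spread, with an SD of 40.0% of its mean against 17.7% in the vehicle group. The group means were 29.9 ± 12.0 and 11.04 ± 1.95 CPM, a log2 fold change of 1.43 with a standard error (SE) of 0.21, or 2.69-fold. These values rested on 334-1383 reads per Cmpd60 library and 172-358 per vehicle library. The log2 fold change lay between 1.18 (without Cmpd60 heart 72) and 1.57 (without Cmpd60 heart 71) when single libraries were left out.

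**Figure D1:**
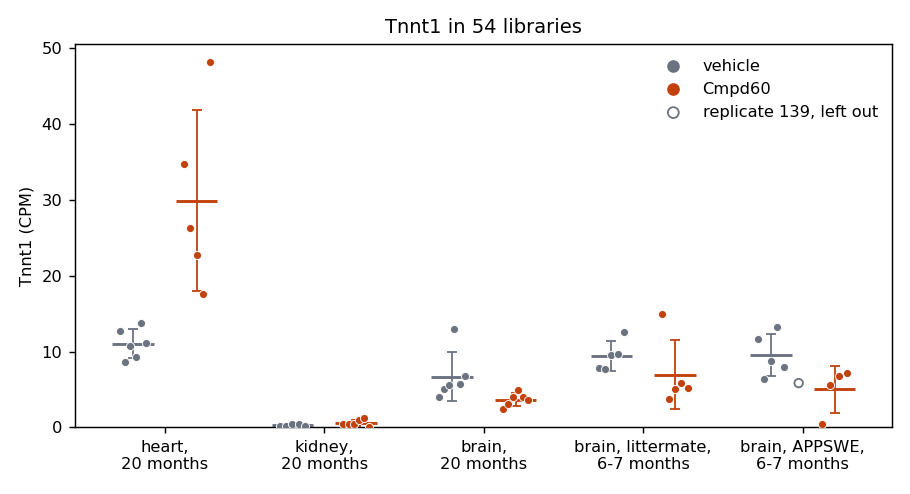
Tnnt1 (CPM) in each 20-month library, by tissue and treatment. Points are libraries and lines are group means. The 5 Cmpd60 hearts sit between 17.6 and 48.1 CPM, all above the vehicle hearts, which reach 13.8 CPM. All but 1 of the 20-month brain libraries and all kidneys lie below every heart.

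The cardiac troponin T gene, Tnnt2 (ENSMUSG00000026414), stood near the same level in both groups. Its Cmpd60 hearts held 10924, 8606, 8404, 8650 and 10783 CPM and its vehicle hearts 7748, 8365, 9224, 7807, 10017 and 8125 CPM. The groups overlapped, although Cmpd60 hearts 68 and 72 exceeded every vehicle heart, and the log2 fold change was 0.13 (SE 0.10). The fast skeletal gene Tnnt3 (ENSMUSG00000061723) ranged from 0.522 to 1.84 CPM in Cmpd60 hearts and from 0.341 to 1.80 CPM in vehicle hearts, with a log2 fold change of 0.02 (SE 0.42). Tnnt1 took 0.308% ± 0.0884 of all troponin T reads in Cmpd60 hearts and 0.129% ± 0.0213 in vehicle hearts. Scaled by transcript length, the shares were 0.319% and 0.134%. Tnnt2 supplied 99.7% and 99.9% of the troponin T reads in the respective groups.

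Among the inhibitory subunits, Tnni3 (ENSMUSG00000035458), the cardiac form, held 3524, 2497, 2689, 2702 and 3261 CPM in Cmpd60 hearts. Vehicle hearts held 2995, 3189, 3417, 2791, 3568 and 3161 CPM of Tnni3. Cmpd60 hearts 69, 70 and 71 lay below every vehicle heart and the other two within the vehicle range, for a log2 fold change of -0.13 (SE 0.10). The fetal and slow form Tnni1 (ENSMUSG00000026418) stayed below 1 CPM in every heart, at 0.0348, 0.765, 0.579, 0.579 and 0.279 CPM with Cmpd60 and 0.227-0.503 CPM with vehicle. Of its Cmpd60 hearts, 3 lay above and 1 below all vehicle hearts, and its log2 fold change was 0.13 (SE 0.58). Tnni2 (ENSMUSG00000031097), the fast form, ranged over 1.07-2.79 CPM with Cmpd60 and 0.956-1.95 CPM with vehicle, with a log2 fold change of 0.23 (SE 0.29). Tnni3 made up 99.9% of the troponin I reads in both groups.

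Tnnc1 (ENSMUSG00000091898), the troponin C of the heart, varied least. It stood at 1597, 1577, 1555, 1526 and 1667 CPM in Cmpd60 hearts and at 1467, 1551, 1779, 1481, 1669 and 1567 CPM in vehicle hearts. The Cmpd60 hearts all fell inside the vehicle range, and the log2 fold change was -0.02 (SE 0.06). Tnnc2 (ENSMUSG00000017300), the fast skeletal form, was near the limit of detection. It held 16, 1, 4, 4 and 0 reads in Cmpd60 hearts and 1, 6, 3, 1, 0 and 4 reads in vehicle hearts. A single library, Cmpd60 heart 68, held most of the Cmpd60 reads, and the log2 fold change turned from 0.78 (SE 0.97) to -0.17 without it.

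Ratios within a library do not depend on how libraries are scaled. Per 100 Tnnt2 reads there were 30.95 ± 1.34 Tnni3 reads in Cmpd60 hearts (29.01-32.3) and 37.3 ± 1.44 in vehicle hearts (35.6-38.9). The groups did not overlap in this ratio, although they overlapped in both genes taken singly. How often the ratio of a gene pair separates these groups was not counted over all genes, so this separation is a description. Tnnc1 reached 16.9 ± 1.76 reads per 100 Tnnt2 reads with Cmpd60 and 18.6 ± 0.997 with vehicle, and these groups overlapped. Per 100 Tnni3 reads there were 54.8 ± 6.80 Tnnc1 reads with Cmpd60 (45.3-63.1) and 49.8 ± 2.33 with vehicle (46.8-53.1), also overlapping. Tnnt1 reached 0.309 ± 0.0890 reads per 100 Tnnt2 reads with Cmpd60 and 0.129 ± 0.0214 with vehicle, again without overlap.

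**Figure D2:**
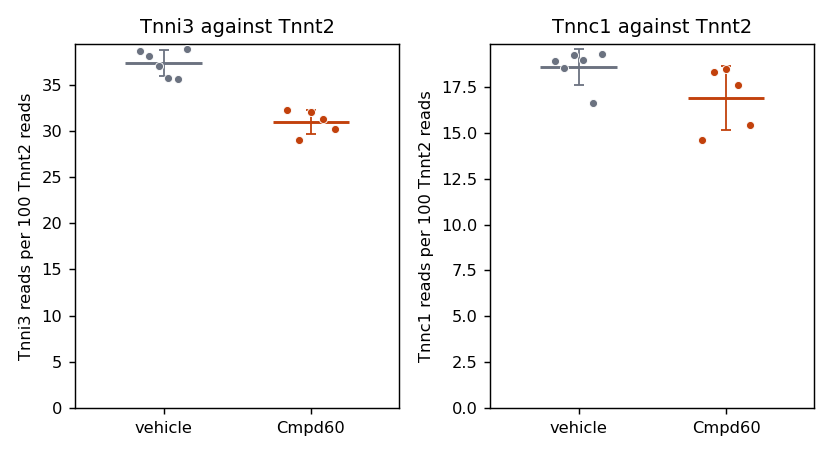
Reads of Tnni3 and Tnnc1 per 100 reads of Tnnt2 in each 20-month heart library, by treatment. Points are libraries, lines are group means and bars are SD. The Tnni3 ratio lies at 29.01-32.3 in Cmpd60 hearts and 35.6-38.9 in vehicle hearts, whereas the Tnnc1 ratio overlaps.

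In the edgeR quasi-likelihood fit over 19452 genes, 1.18% of genes were called in the heart at a Benjamini-Hochberg adjusted p below 0.05 (229 genes, 147 higher and 82 lower with Cmpd60). Groups that did not overlap, with all Cmpd60 hearts above, were found for 1.66% of genes. These counts over all genes include the troponin genes, but no call is given for them in heart, because this contrast led to their choice. The median log2 fold change of the 8 genes was 0.13, beside -0.00144 over all genes tested. Leaving out single libraries gave between 36 calls over all genes (without Cmpd60 heart 72) and 247 (without Cmpd60 heart 71).

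The genes whose profile over the 11 hearts was most like that of Tnnt1 were sought among 12815 genes with at least 1 CPM on average. With the group means removed, the highest Pearson correlations of log2 CPM were those of Tbcb (0.944), Gm6136 (0.927), Nav1 (0.924), Gm7327 (0.917) and Clpp (0.909). Tbcb encodes a tubulin folding cofactor and Clpp the proteolytic subunit of a mitochondrial protease. Measured in the same way, Tnnt2 correlated at 0.751 with Tnnt1, Tnni3 at 0.709, Tnni2 at 0.613 and Tnnc1 at 0.578. Without removing the group means, the leading genes were Pvrl2 (0.946), Bsg (0.937), Syngr1 (0.937), Abhd8 (0.936) and Car14 (0.934), where Car14 encodes a membrane carbonic anhydrase. The points of each correlation are the same 11 libraries with the same scaling, and the lists are descriptions.

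The genes beside the troponin genes gave a view of the wider loci in the same heart fit. Ppp1r12c, on the side of Tnnt1 away from Tnni3, had a log2 fold change of 0.14 (adjusted p = 0.426 in edgeR). Tnni3, on its other side, stood at -0.13. Around Tnnc1, Nisch stood at 0.16 and Sema3g at 0.23 (edgeR adjusted p = 0.132). None of the other neighbours tested was called (Lad1, Pkp1, Lsp1, Mrpl23, Phlda3, Syt8, Snx21 and Ube2c).

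Partners of troponin and markers of cell types and tissues were compared in the heart fit by lists of genes. Of 21 lists, 6 held pathway genes and 15 held markers, and all were written with earlier results of these data known. Together, 169 of 179 distinct genes were tested and 4 were called (2.37%, beside 1.18% of all genes), with a median log2 fold change of 0.01. Mybpc3, cardiac myosin-binding protein C, was lower in 5 of 5 Cmpd60 hearts than in any vehicle heart, at 2992 ± 334 CPM against 3968 ± 311 CPM (log2 fold change -0.42, SE 0.07, edgeR adjusted p = 0.0157). Nebl, the nebulin relative nebulette of the thin filament, was also lower in 5 of 5 hearts, at 415 ± 25.6 against 497 ± 39.1 CPM (-0.27, SE 0.06, edgeR adjusted p = 0.0434). The share of all genes with every Cmpd60 heart below every vehicle heart is not given here. Calm2, a calmodulin gene and an EF-hand relative of troponin C, was higher in 5 of 5 hearts, at 162 ± 23.7 against 119 ± 6.86 CPM (0.43, SE 0.09, edgeR adjusted p = 0.0280). Hcn4, the pacemaker channel of the conduction list, was lower, at 13.7 ± 1.49 against 20.8 ± 3.61 CPM (-0.61, SE 0.12, edgeR adjusted p = 0.0245), with 4 of 5 Cmpd60 hearts below all vehicle hearts. When each of the 11 libraries was left out in turn, Mybpc3 was called in 11 of 11 fits, Hcn4 in 8, Calm2 in 6 and Nebl in 1. The calls in the lists fell to 1 without Cmpd60 heart 69, Cmpd60 heart 72 or vehicle heart 63, and to 2 without vehicle heart 65 or 67.

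By group, the thin filament list held 1 call in 13 genes tested (median log2 fold change 0.01), the thick filament and M-band list 1 in 17 (-0.09) and the Z-disc list 0 in 15 (0.12). Ankrd1, a stress-responsive Z-disc partner, stood at 0.47 (edgeR adjusted p = 0.205) and Actn2, alpha-actinin, at -0.07. The EF-hand list held 1 call in 8 (median 0.11) and the list of kinases and phosphatases acting on troponin I or T held 0 in 16 (-0.00263). Prkar1a, a regulatory subunit of protein kinase A, stood at 0.32 and lay above all vehicle hearts in 5 of 5 (edgeR adjusted p = 0.0726). Muscle transcription factors gave 0 calls in 23 tested (median -0.05), with Tead1, a factor that binds M-CAT elements, at 0.23 (edgeR adjusted p = 0.128) and Mef2a at 0.18.

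Markers of other muscle and cell types that a heart sample can hold were set beside Tnnt1. The slow skeletal list, whose defining genes Myh7 and Myoz2 the heart also expresses, gave 0 calls in 6 genes (median 0.15), and its summed level was 1842-4572 CPM with Cmpd60 and 1669-2564 CPM with vehicle. Myh7, the slow myosin heavy chain, stood at 1848 ± 1068 against 1255 ± 319 CPM (log2 fold change 0.53, edgeR adjusted p = 0.379). The fast skeletal list gave 0 calls in 12 genes tested, with 8 of them positive (median 0.42) and a summed level of 125.6-150.7 CPM against 129.5-156 CPM. Its most abundant genes, Myl1 and Mybpc2, stood at -0.12 and 0.16, and Myh4 had no reads in any heart.

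The atrial list was negative in 7 of 7 genes (median -0.42), none of them called and 3 at an unadjusted p below 0.05. At that threshold 2626 of 19452 genes passed in the heart fit of edgeR. The conduction, endothelium and macrophage lists also held 3 such genes each. The summed level of the atrial list was 2799-8018 CPM with Cmpd60 and 3811-8793 CPM with vehicle. Myl4, the atrial essential light chain, stood at -0.53 (edgeR adjusted p = 0.235) and Nppa, atrial natriuretic peptide, at -0.04. The ventricular list gave 0 calls in 4 genes (median 0.10), the conduction list 1 in 9 (-0.15) and the general cardiomyocyte list 1 in 8 (-0.05), with summed cardiomyocyte levels of 67269-74981 and 67665-80523 CPM. Median log2 fold changes without any call were 0.01 for fibroblast, 0.18 for endothelium, -0.09 for smooth muscle, 0.26 for macrophage, 0.28 for red blood cell, -0.36 for adipocyte, -0.51 for kidney epithelium, 0.34 for neuron and 0.15 for thalamus markers. The 6 macrophage and 6 endothelial markers were all positive. Their summed levels were 270.7-331 and 1303-1708 CPM with Cmpd60 and 201.2-324 and 1210-1310 CPM with vehicle, while the kidney markers, near their floor in heart, summed to 0.104-3.84 and 2.09-8.55 CPM. The part of these markers in the Tnnt1 difference was not tested.

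Across tissues, vehicle libraries were compared in an edgeR fit over all 34 libraries of aged mice and 27105 genes. The labels do not tell which tissues came from the same mouse, so libraries entered as separate mice and the p-values measure the spread between them. Markers matched the tissue labels, since the cardiomyocyte list summed to 67269-80523 CPM in heart and 4.30-17.7 CPM in kidney, kidney epithelial markers to 6379-13903 CPM in kidney and neuronal markers to 4315-5977 CPM in brain. In kidney, the troponin genes were close to the floor of detection. Tnnc1 led at 1.12 ± 0.506 RPKM (n = 5), followed by Tnnt2 at 0.627 and Tnni3 at 0.465 RPKM, and then by Tnnt1 at 0.283 RPKM. Every neighbouring pair in that order overlapped. Vehicle kidneys held 6 reads of Tnni1 and 1 read of Tnnc2 in all, so these genes entered the tissue fit through heart and brain and had to lie lower in kidney.

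Of the 6 genes that passed the filter in kidney by itself, Tnnt3 had only 9 reads in vehicle kidneys, with none in 3 of 5. It passed that filter with the help of Cmpd60 kidneys, so between vehicle libraries its call higher in heart was largely fixed in advance. The other 5 genes were all called higher in heart than in kidney, beside 25.6% of all genes called in that direction. The difference of Tnnt1 between heart and kidney was 5.22 on the log2 scale (SE 0.40, edgeR adjusted p = 5.01e-14), from 11.04 CPM in heart and 0.300 CPM in kidney, and all 6 hearts lay above all 5 kidneys. The cardiac genes differed far more, by 13.62 for Tnnt2, 12.92 for Tnni3 and 10.98 for Tnnc1. The differences of the low genes depended on single kidney libraries. That of Tnnt3 went from 4.21 to 6.60 without kidney 46, and that of Tnni2 from 3.41 to 4.16 without kidney 49. Tnni1 and Tnnc2 are given by level only, at 0.0381 and 0.00730 CPM in kidney. With the kidney groups read from the treatment field, the difference of Tnnt1 was 4.20 (edgeR adjusted p = 1.52e-13). Tnnt2, Tnnt3, Tnni2, Tnni3 and Tnnc1 were also called higher in heart under that reading.

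Brain held a different mixture. The order per length was led by Tnnt1 at 6.31 ± 3.03 RPKM (n = 6), then Tnnt2 at 4.08 ± 0.915, Tnni1 at 3.09 ± 0.397 and Tnnc1 at 2.76 ± 0.751 RPKM, and each of these overlapped the next. Tnni3 followed at 0.686 ± 0.111 RPKM, apart from both its neighbours in the order, and Tnnc2, Tnni2 and Tnnt3 lay at 0.193, 0.177 and 0.0515 RPKM. Tnni1, the fetal and slow troponin I, was the only member called lower in heart than in brain, by -3.15 on the log2 scale (SE 0.35, edgeR adjusted p = 2.45e-09), at 0.398 CPM in heart and 3.55 CPM in brain. Against brain, 6 of 8 genes were called higher in heart and 1 lower, beside 28.9% and 43.2% of all genes, and Tnnc2 was not called (-0.28, edgeR adjusted p = 0.764). Among those 6 genes, Tnnt3 had only 11 reads in vehicle brains, with none in 2 of 6. Vehicle brains alone did not pass the filter for Tnnt3, so its call higher in heart was largely fixed in advance.

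**Figure D3:**
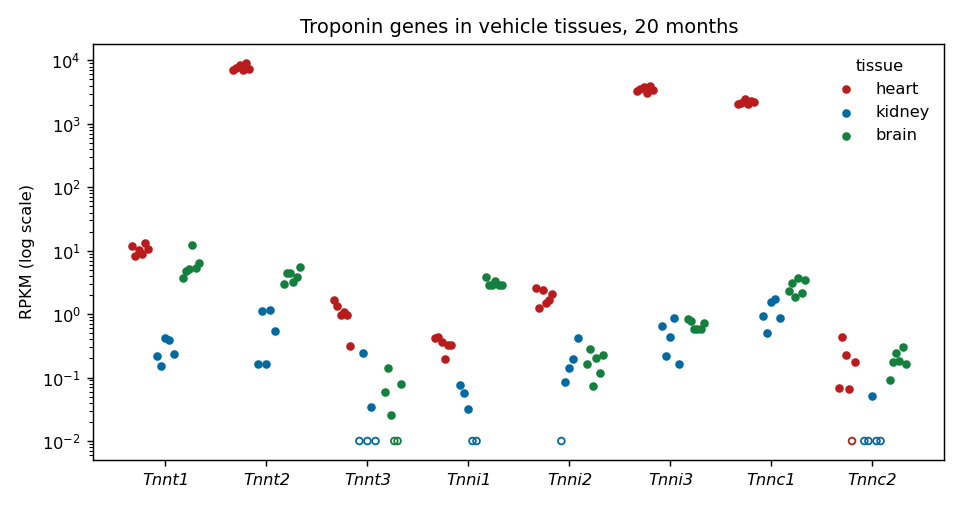
Level of each troponin gene per transcript length (RPKM, log axis) in the vehicle libraries of heart, kidney and brain at 20 months. Points are libraries and open circles at the bottom are libraries with no reads. Tnnt2, Tnni3 and Tnnc1 stand at 2034-9132 RPKM in heart and below 6 RPKM elsewhere, whereas Tnnt1 in brain overlaps heart and Tnni1 is higher in brain.

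The level of Tnnt1 itself was close in vehicle heart and vehicle brain. It was 0.72 higher in heart on the log2 scale (SE 0.27, edgeR adjusted p = 0.0171), yet only 1 of 6 hearts lay above all brains, since brain 30 held 12.9 CPM. This call depended on scaling. Without TMM scaling the difference was 0.13 (edgeR adjusted p = 0.685). The median of all genes moved from -0.44 to -1.03 between these scalings, so relative to that median Tnnt1 stood 1.16 higher in heart under both. Compared with brain, kidney had less Tnnt1 by -4.50 (SE 0.40), Tnnt2 by -2.73 and Tnnc1 by -1.35 on the log2 scale. These were the 3 called in edgeR among the same 6 genes, beside 39.8% of all genes called lower in kidney, while Tnnt3 (0.10), Tnni2 (-0.02) and Tnni3 (-0.61, adjusted p = 0.130) were not called. Tnni3 was called with DESeq2 (-0.74, adjusted p = 0.0149) and in edgeR without kidney 48 (-0.92, adjusted p = 0.0344). The calls of 2 genes between kidney and brain rested on the kidney labels. With the groups read from the treatment field, Tnnc1 was no longer called (-0.16, edgeR adjusted p = 0.483) and Tnni3 was (-1.09, edgeR adjusted p = 0.00788).

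The kidney comparison of Cmpd60 with vehicle, which played no part in choosing the genes, tested 6 of the 8 genes. None was called, beside 0.3% of all genes in kidney (62 of 20698), and the median log2 fold change was 0.26. At an unadjusted p below 0.05, 2346 genes passed in edgeR, and DESeq2 called 429 genes. Under the treatment field of the kidney labels every direction in this comparison would turn. Tnnt1 stood at 0.441, 0.389, 0.440, 0.984, 1.19 and 0.0954 CPM in Cmpd60 kidneys 50 to 55 and at 0.236, 0.164, 0.438, 0.410 and 0.250 CPM in vehicle kidneys 45 to 49. Of the Cmpd60 kidneys, 4 lay above and 1 below all vehicle kidneys, and the log2 fold change of 0.98 (SE 0.57, edgeR adjusted p = 0.539) had an interval of -0.14 to 2.09.

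Tnnc1 showed the largest separation in kidney. It stood at 1.35, 3.01, 1.36, 1.41, 1.10 and 2.61 CPM with Cmpd60 and at 0.678, 0.361, 1.13, 1.23 and 0.626 CPM with vehicle. Of the 6 Cmpd60 kidneys, 5 lay above all vehicle kidneys, with a log2 fold change of 1.17 (SE 0.38) that did not pass the test over all genes (edgeR adjusted p = 0.245). The cardiac genes Tnnt2 (-0.62, SE 0.62) and Tnni3 (-0.61, SE 0.76) and the fast genes Tnnt3 (1.30, SE 1.27) and Tnni2 (-0.45, SE 0.99) had standard errors close to or above their log2 fold changes. Single libraries moved these values. Tnnt3 stood at 0.41 without Cmpd60 kidney 53 and at 3.68 without vehicle kidney 46, and Tnni2 turned to 0.26 without vehicle kidney 49. Tnnt2 stood at -1.20 without Cmpd60 kidney 51 and at -0.28 without vehicle kidney 48, and Tnni3 at -1.11 without Cmpd60 kidney 54 and -0.27 without vehicle kidney 48. Tnni1 and Tnnc2 were not tested, with no reads in Cmpd60 kidneys and 6 and 1 reads in vehicle kidneys.

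In the brain of aged mice all 8 genes were tested and none was called, beside 0.0205% of all genes (5 of 24438). At an unadjusted p below 0.05, 3368 genes passed in edgeR, and DESeq2 called 429. Tnnt1 stood at 2.45, 3.10, 3.95, 4.93, 4.004 and 3.56 CPM in Cmpd60 brains 33 to 38 and at 3.98, 5.07, 5.55, 12.9, 5.71 and 6.82 CPM in vehicle brains 27 to 32. Here the Cmpd60 group was the lower one, with 4 of 6 libraries below all vehicle libraries. The log2 fold change was -0.90 (SE 0.23, edgeR adjusted p = 0.117), and -0.59 (SE 0.16, adjusted p = 0.200) without vehicle brain 30, the highest library. With no filter on low counts the adjusted p of edgeR was 0.0491, which is past the threshold. Of all troponin T reads in brain, Tnnt1 took 43.0% ± 7.45 with Cmpd60 and 57.7% ± 10.4 with vehicle.

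Within the brain, Tnnt1 is known from the thalamus, so 8 thalamus markers were set beside it. All 8 were negative with Cmpd60, at a median log2 fold change of -0.38 beside 0.01 over all genes. Of the 8, 0 were called and 6 were at an unadjusted p below 0.05 in edgeR, beside 3368 of 24438 genes. Prkcd stood at -0.64 (edgeR adjusted p = 0.176), Ramp3 at -0.66 (edgeR adjusted p = 0.126), Synpo2 at -0.55 (edgeR adjusted p = 0.125) and Rgs16 at -0.48 (edgeR adjusted p = 0.117). The summed level of the 8 markers was 215-309 CPM in Cmpd60 brains and 287-445 CPM in vehicle brains, and vehicle brain 30 was the highest in both this sum and Tnnt1. The part of the thalamus share of each sample in the Tnnt1 values was not tested.

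**Figure D4:**
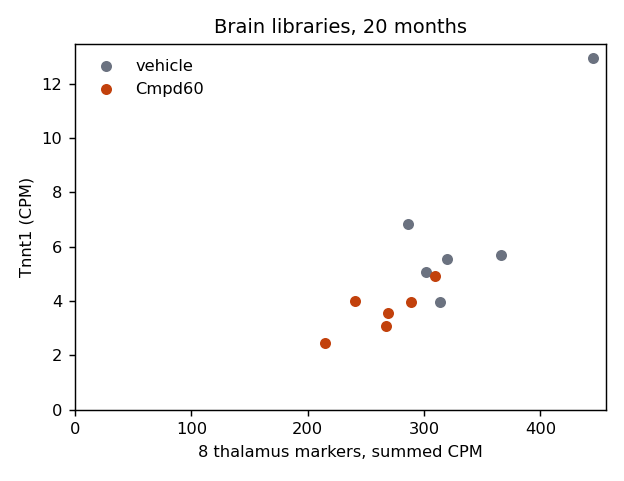
Tnnt1 (CPM) against the summed level of 8 thalamus marker genes (CPM) in the 12 brain libraries of 20-month mice, by treatment. Each point is a library. Vehicle brain 30 stands at the top right with 12.9 CPM of Tnnt1 and 445 CPM of thalamus markers, and Cmpd60 brains lie at 309 CPM of markers or less.

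The log2 fold changes of the other troponin genes in brain were all under 1. Tnni1 ranged over 2.89-3.86 CPM with Cmpd60 and 3.26-4.39 CPM with vehicle, and 5 of 6 Cmpd60 brains lay below all vehicle brains, for a log2 fold change of -0.19 (SE 0.11, edgeR adjusted p = 0.468). Tnnt2 stood at 0.04 (SE 0.13), Tnnc1 at 0.21 (SE 0.18) and Tnni3 at -0.10 (SE 0.22). The fast genes, with at most 24 reads per library, stood at 0.92 for Tnnt3, 0.57 for Tnni2 and 0.51 for Tnnc2, with standard errors of 0.77, 0.50 and 0.56. The response of Tnnt1 in brain differed from that in kidney by -1.88 on the log2 scale (SE 0.54), which did not pass the test over all genes (edgeR adjusted p = 0.175). With the kidney groups read from the treatment field this difference was 0.15 (SE 0.52), which did not pass in edgeR either. The same difference of Tnnc1 rested on the kidney labels. It was -0.95 (SE 0.32, edgeR adjusted p = 0.287) by title. By treatment field it was 1.42 (SE 0.32, edgeR adjusted p = 0.0218), where 215 of 27105 genes were called.

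**Figure D5:**
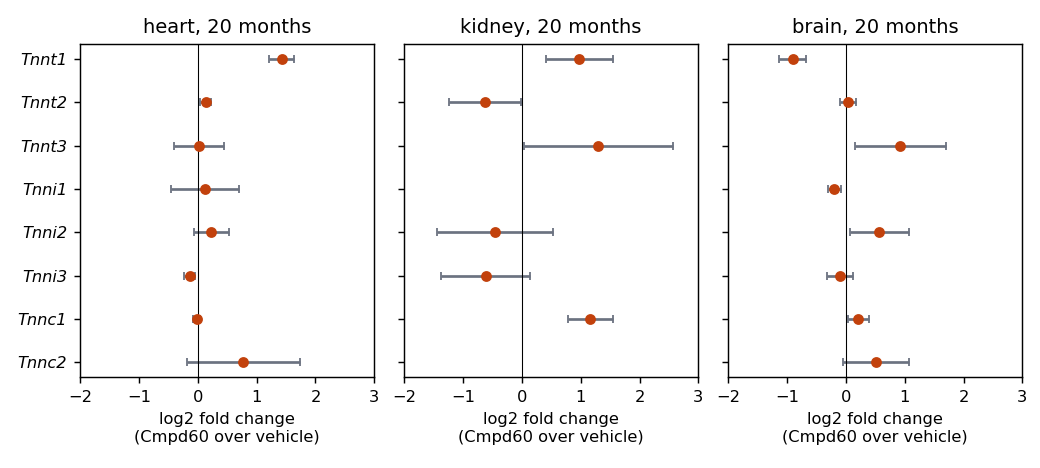
Log2 fold change of Cmpd60 against vehicle for each troponin gene in heart, kidney and brain of 20-month mice. Points are edgeR estimates and bars are standard errors. Tnnt1 stands at 1.43 in heart, 0.98 in kidney and -0.90 in brain, and Tnni1 and Tnnc2 were not tested in kidney.

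In brain of 6-7-month-old mice the troponin genes were hard to compare, because their reads were patchy. Tnnt1 was the only member with reads in all 20 libraries, at 0.468-14.98 CPM, whereas Tnnc2 had none in 13, Tnni2 in 11, Tnnt3 in 9, Tnni1 and Tnni3 in 5 each, Tnnt2 in 4 and Tnnc1 in 2. The same genes could be counted often elsewhere in these brains, such as 254 Tnni3 reads in APPSWE vehicle brain 140, which had no read of Tnnt2. These 20 libraries detected 15044-24821 genes each, against 24939-28017 in aged brain. APPSWE vehicle brains detected 15555-20277 genes and APPSWE Cmpd60 brains 16402-23402. The part of this difference in the troponin values was not tested. The biological coefficient of variation fitted by edgeR was 0.729 in this set, against 0.114 in aged brain and 0.21 in aged heart. No gene of 23194 was called in either genotype by edgeR (0% of genes), with 852 genes at an unadjusted p below 0.05 in littermates and 2195 in APPSWE mice, and DESeq2 called 4 and 22.

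In littermates, Tnnt1 stood at 14.98, 3.75, 5.07, 5.91 and 5.13 CPM with Cmpd60 (152, 153, 156, 157 and 158) and at 7.83, 7.65, 9.52, 9.69 and 12.5 CPM with vehicle. In this set 4 Cmpd60 brains lay below and brain 152 above all vehicle brains, so the log2 fold change of -0.44 (SE 0.49, edgeR adjusted p = 0.999) became -0.93 without brain 152. That library also held 213 reads of Tnnt3 and 224 of Tnni2, the most in this set, and none of Tnnc1, Tnnc2 or Tnni1. In APPSWE mice, Tnnt1 stood at 0.468, 5.58, 6.80 and 7.23 CPM with Cmpd60 (141, 143, 147 and 148) and at 11.7, 6.37, 8.74, 13.2 and 7.93 CPM with vehicle. A further APPSWE vehicle brain, with 5.84 CPM, was left out of the fit because the sources disagree on its treatment. The log2 fold change was -0.93 (SE 0.53, edgeR adjusted p = 0.634), and 2 of 4 Cmpd60 brains lay below all vehicle brains in the fit.

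Ordered by mean level over all groups, Tnnt1 ran from Cmpd60 heart (29.9 CPM) to vehicle heart (11.04 CPM) without overlap. Vehicle brains of littermate (9.45 CPM) and APPSWE mice (8.96 CPM with that brain included) followed, then littermate Cmpd60 (6.97), aged vehicle (6.68), APPSWE Cmpd60 (5.02) and aged Cmpd60 brain (3.67 CPM), where each group overlapped the next. Kidney closed the order at 0.589 CPM with Cmpd60, below every aged brain library, and 0.300 CPM with vehicle. The 20 brains of younger mice were scaled as a separate set, so their place in this order rests on that scaling. In each of the 3 brain comparisons the mean of Tnnt1 was lower with Cmpd60, and none of these differences passed the edgeR test.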

How the data were processed

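Poly(A)-selected RNA libraries that keep strand were sequenced from heart, kidney and brain. The authors deposited raw counts per Ensembl gene for each of 54 libraries, and 5 summary lines per file were dropped. The submitters' processing notes name FastQC, Trimmomatic 0.32, HISAT2 2.1.0 and HTSeq 0.11.0, and the genome build is not given in the sources used here. From these counts, a gene was kept if 3 or more libraries each held over 2 counts of it, and quasi-likelihood fits were made in edgeR 4.0.16 (R 4.3.3) after TMM scaling, each tissue on its own, the 6-7-month brains together without 1 APPSWE vehicle library, and the 34 libraries of aged mice together for comparisons between vehicle tissues. Limma 3.58.1 (voom), DESeq2 1.42.0, other filters, other scaling and leaving out each library were the alternatives. Reading the kidney groups from the treatment field was added after seeing the data. SE is the absolute log2 fold change divided by the square root of F, and intervals are 1.96 SE either way. RPKM used the longest coding transcript of a gene. The filter limits what can be seen at low counts, and 3 counts in the smallest library amount to 0.127 CPM.

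The edgeR comparison of Cmpd60 with vehicle was tested on simulated counts for aged heart, kidney and brain. Changes were placed only in genes with higher counts, and the other fits, shares, ratios and lists were not covered. The 8 genes, the 21 lists and the motifs were chosen with earlier results of these data known. Genes named beside the members are the neighbouring genes, the 5 most like Tnnt1 with and without centring, and from each list up to 3 called genes in heart with the largest change or, with none called, up to 2 with the highest mean CPM. Myh4, Ramp3 and Rgs16, from the lists, fall outside that rule and were chosen after their values were seen. Of the list symbols, 2 were not matched (Hbb-bs, Hbb-bt) and 1 was matched by an older name.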

Additional observations from a re-analysis of the deposited data

Results flagged for a closer look

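A library was taken up here where it stood far from the rest of its group, by the gap to its nearest neighbour over the range of the group at the 95% level of Dixon's test. Of 90 groups of 4 to 6 libraries examined, 21 were picked out. The test picks about 1 in 20 by chance only where values are normally distributed. A group in which a single library held all the reads is always picked out, as with Tnnc2 in vehicle kidneys. The count of 21 can therefore not be set against that rate, and it does not show an excess of unusual libraries. No cause was weighed for any of the 21.

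In the aged mice, vehicle brain 30 held 12.9 CPM of Tnnt1, the highest of its group, and Cmpd60 brain 35 held 3.86 CPM of Tnni1. In kidney, Cmpd60 library 51 held 1.20 CPM of Tnnt2, Cmpd60 library 53 held 0.527 CPM of Tnnt3, vehicle library 46 held 0.262 CPM of Tnnt3 and vehicle library 47 held 0.0365 CPM of Tnnc2, the last from 1 read. In heart, vehicle library 66 was low in the ratio of Tnnc1 to Tnnt2, with 16.7 Tnnc1 reads per 100 Tnnt2 reads.

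Most of the others came from the brains of 6-7-month-old mice, where troponin reads were patchy. Littermate Cmpd60 brain 152 was apart in 5 genes, with 14.98 CPM of Tnnt1, 9.90 of Tnnt2, 6.57 of Tnnt3 and 6.91 of Tnni2 at the high end and 0 of Tnnc1 at the low end. An APPSWE vehicle brain was high in the fast skeletal genes, with 4.48 CPM of Tnnt3, 1.19 of Tnni2 and 3.04 of Tnnc2. APPSWE vehicle brain 140 held 4.54 CPM of Tnni3 and APPSWE Cmpd60 brain 141 held 2.34 CPM of Tnnt3. Smaller values that stood apart were 0.116 CPM of Tnnc2 in APPSWE Cmpd60 brain 147, 0.478 CPM of Tnnt3 and 0.0735 CPM of Tnnc2 in a littermate vehicle brain, and 0.249 CPM of Tnni2 in another littermate vehicle brain.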

How the results depend on the processing

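In heart, where the troponin genes are described without a test, the log2 fold change of Tnnt1 was 1.38-1.43 in the 6 settings that kept every library. No troponin gene was called in kidney under any setting. Calls of Tnnt1 elsewhere changed in 2 comparisons. In brain, without a filter on low counts, its value was -0.89 with an adjusted p of 0.0491 in edgeR, which made 1 member past the threshold. Between heart and brain, without TMM, its difference was 0.13 with an adjusted p of 0.685. Without TMM the share of higher calls went from 40.0% to 25.8% between heart and brain and from 45.2% to 30.2% between heart and kidney. The called list genes in heart numbered 12 with DESeq2 and 1-6 in fits leaving out 1 library, beside 4. Calls over all genes were 746 with DESeq2 and 36-247 with a library left out in heart (229), 429 with DESeq2, 94 with no filter and 20-131 with a library left out in kidney (62), and 429, 102, 2 with voom and 1-372 in brain (5). The brain count of 372 came without vehicle brain 29. In littermate and APPSWE brain 0 genes were called, but 4 and 22 with DESeq2 and 2 and 8 with no filter. In heart, Tnni1 turned to -0.38 with voom, and leaving out a library moved Tnnt3 over -0.19 to 0.21, Tnni1 over -0.15 to 0.43, Tnni2 over -0.026 to 0.36, Tnnc1 over -0.042 to 0.018 and Tnnc2 over -0.17 to 1.31. In the other comparisons, directions turned only among values that were not called in the main fits. With voom, brain Tnnc2 was -0.026, littermate Tnni3 0.34 and Tnnc1 -0.40, APPSWE Tnnt2 1.69, Tnnt3 0.78, Tnni1 0.69 and Tnni2 0.085. APPSWE Tnnt2 was 0.14 with the library left out counted as Cmpd60. Kidney minus brain Tnnt3 was -0.024 with DESeq2, -0.43 with voom, -0.028 with DESeq2 size factors and -0.075 without TMM. Leaving out a library moved kidney Tnni2 over -0.99 to 0.26, brain Tnnt2 over -0.039 to 0.14 and Tnni3 over -0.17 to 0.023, littermate Tnnt2 over -0.25 to 1.07 and Tnni1 over -1.17 to 0.17. In APPSWE mice the ranges were -0.92 to 0.97 for Tnnt2, -5.09 to 7.26 for Tnnt3, -1.36 to 0.14 for Tnni1, -3.96 to 3.88 for Tnni2 and -3.36 to 0.040 for Tnni3, and between kidney and brain -2.30 to 0.68 for Tnnt3 and -0.78 to 0.30 for Tnni2. The cause of these turns was not tested. No paired analysis was possible because the groups compared share no replicate numbers and the labels do not tell which tissues came from the same mouse. Genes under 3 counts per library cannot be compared at this depth.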
